A study of Caenorhabditis elegans with 2 samples.

Results

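Of the 18 SL2 spliced leader RNA genes (sls-2) annotated on the nuclear chromosomes of Caenorhabditis elegans, 5 were overlapped by a peak of the nuclear hormone receptor NHR-76: sls-2.1, sls-2.2, sls-2.3, sls-2.4 and sls-2.8. They were selected on that overlap, of at least 1 bp between the gene body and a row of the deposited thresholded peak list, and the other 13 sls-2 genes had no such row. The peaks come from chromatin immunoprecipitation followed by sequencing (ChIP-seq), and 2 biological replicates of a single group were analysed, with no second group to compare. Both libraries were made from whole L1 larvae of mixed sex, the stage after hatching, of strain OP203, whose genotype is given as unc-119(ed3) III; wgIs203. The strain carries a transgene for NHR-76 with GFP and FLAG tags at its C-terminus; the labels name nhr-76 as the antibody target and do not say which antibody was used or what drives the transgene. The sources used here do not say that the libraries came from separate cultures, so the spread between them may be technical.

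SL RNAs are short nuclear RNAs that donate their 5' end, the spliced leader, to the 5' end of other transcripts in a reaction called trans-splicing. In C. elegans, SL1 is the leader used for most trans-spliced messages, whereas SL2 is placed mainly on the downstream genes of operons, where it comes with cleavage of the polycistronic transcript. Like the spliceosomal snRNAs, SL RNAs carry a binding site for the ring of Sm proteins and are transcribed from short promoters that are read by the snRNA activating protein complex (SNAPc). NHR-76 itself belongs to the large nematode family of nuclear hormone receptors and is known for a role in fat metabolism in the intestine.

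The sequences of 4 of the SL2 RNA genes at peaks are shown here because their leaders separate sls-2.8 from the others, and sls-2.5 is shown with them as the SL2 RNA gene whose signal came closest to the peak threshold from below. Sequences were read from the RefSeq genome of the build WBcel235, which is ce11, 5' to 3' on the gene's own strand. Capitals mark the leader, taken as the bases up to the AG that stands directly before the splice donor GT.
sls-2.1 (chrII:5844865-5844974, plus strand): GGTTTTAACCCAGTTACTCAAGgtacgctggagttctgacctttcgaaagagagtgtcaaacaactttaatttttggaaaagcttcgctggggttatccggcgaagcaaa
sls-2.2 (chrII:5543598-5543707, plus strand): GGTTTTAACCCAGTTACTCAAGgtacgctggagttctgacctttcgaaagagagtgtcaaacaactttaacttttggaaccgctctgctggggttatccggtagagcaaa
sls-2.3 (chrII:5544164-5544273, minus strand): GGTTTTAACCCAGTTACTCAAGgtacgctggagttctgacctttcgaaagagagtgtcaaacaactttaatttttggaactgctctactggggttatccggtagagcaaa
sls-2.8 (chrIII:12250465-12250575, plus strand): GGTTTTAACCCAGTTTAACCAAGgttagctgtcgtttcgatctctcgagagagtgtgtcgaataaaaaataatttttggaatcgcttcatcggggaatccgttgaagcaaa
sls-2.5 (chrIII:7140447-7140553, minus strand): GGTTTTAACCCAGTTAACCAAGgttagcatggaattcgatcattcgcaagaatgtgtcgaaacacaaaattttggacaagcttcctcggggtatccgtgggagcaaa
The leader of 22 bases was the same in sls-2.1, sls-2.2, sls-2.3 and sls-2.4, which is not printed, and in 0 of the other 13 SL2 RNA genes. The leader of sls-2.8 has 23 bases and occurs in no other SL2 RNA gene. Counted from 1 at the 5' end, the leader of sls-2.5 differs from the one shared by the 4 genes by C17A and T18C. The 18 genes carry 11 distinct leaders of 21 to 23 bases, of which 7 occur in 1 gene each, so a leader shared by 4 genes is the most frequent one and the next, that of sls-2.5, occurs in 3 genes.

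The 100 bp upstream of the same genes are shown next because the summit of the strongest pooled region at each of the 5 genes fell in this window. Capitals mark a block of 15 bases, TCGCTTGCCTCGAAA, or, in sls-2.5, the 8-base run AACCCGCG. The block is the longest run that all 4 genes sls-2.1 to sls-2.4 share at one position; the longer run at the 3' end of the windows of sls-2.1, sls-2.2 and sls-2.3 is not shared in full by sls-2.4. The shorter run is the most widely shared 8-base word among the SL2 RNA genes without the block. Both were picked out after the sequences had been seen.
sls-2.1 (chrII:5844765-5844864, plus strand): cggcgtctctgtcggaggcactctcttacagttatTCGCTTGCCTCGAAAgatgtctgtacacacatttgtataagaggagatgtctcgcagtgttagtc
sls-2.2 (chrII:5543498-5543597, plus strand): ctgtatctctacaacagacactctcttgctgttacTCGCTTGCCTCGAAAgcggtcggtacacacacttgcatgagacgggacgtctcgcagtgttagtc
sls-2.3 (chrII:5544274-5544373, minus strand): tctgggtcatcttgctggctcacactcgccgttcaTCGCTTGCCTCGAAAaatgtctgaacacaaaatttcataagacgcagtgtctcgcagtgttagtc
sls-2.8 (chrIII:12250365-12250464, plus strand): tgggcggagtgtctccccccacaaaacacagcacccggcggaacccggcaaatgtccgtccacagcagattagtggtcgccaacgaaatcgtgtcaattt
sls-2.5 (chrIII:7140554-7140653, minus strand): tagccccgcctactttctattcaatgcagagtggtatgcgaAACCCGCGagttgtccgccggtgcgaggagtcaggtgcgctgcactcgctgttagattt
The block stood at positions -65 to -51 from the 5' end in sls-2.1, sls-2.2, sls-2.3 and sls-2.4, and the whole genome holds it 4 times on both strands together, each time upstream of one of these 4 genes. All 4 matches lay under a peak, which the choice of the genes brings with it. Among the 100 bp windows upstream of 46890 genes, 4 held the block, or 0.00853%. In sls-2.8 the same positions differed from the block at 9 of 15 bases (8 when a shift of up to 5 bases was allowed). In the 13 SL2 RNA genes without a peak they differed at 8 to 13 bases (6 to 9 with the shift). The exact run AACCCGCG began at position -59 in 6 of these 13 genes and in 0 of the 5 at peaks, and 56 of all gene windows held it, or 0.119%. Near copies were not counted: from the same position sls-2.8, at a peak, reads AACCCGGC, and sls-2.12, sls-2.13 and sls-2.17, without peaks, read AACCCGCA. No SL2 RNA gene had both the exact run and the block. This was set in advance, as the run was picked from genes without the block and the run and the block take up overlapping positions. These matches describe letters in the windows and were not tested as binding sites of NHR-76 or of any other factor.

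The sequence likeness of the SL2 RNA genes at peaks was that of a group of 4 and 1 gene apart. Over the RNA gene, the 6 pairs among sls-2.1 to sls-2.4 were 90.9 to 97.3% identical, with a median of 94.1%, and over the 100 bp upstream 67.0 to 79.0% identical. The identity of sls-2.8 with these 4 genes was 71.6 to 74.1% over the RNA gene and 49.2 to 52.6% upstream. The 65 pairs of a gene at a peak with one of the other SL2 RNA genes were 68.4 to 83.2% identical over the RNA gene, with a median of 75.0%. Groups as alike also occurred without peaks: the 78 pairs among the other 13 genes ranged from 66.4 to 99.1% over the RNA gene and from 41.3 to 96.0% upstream, with sls-2.10 and sls-2.11 at 99.1% over the RNA gene and 95% upstream, and the genes sls-2.12, sls-2.13 and sls-2.17 at 90 to 96.4% over the RNA gene. The closest gene to sls-2.8 was sls-2.7, at 83.2%. The Sm site was sought as the exact run AATTTTTGG on the gene's strand. That run was present in 4 of the 5 genes at peaks and in 9 of the other 13. In sls-2.2 it reads with T3C, counted from its first base. Of the other 13, sls-2.5, sls-2.10 and sls-2.11 hold AAATTTTGG and sls-2.18 holds AAATTTTGA, so genes without the exact run may still have an Sm site. The exact run AATTTTTGG was present in the upstream windows of 401 of the 46890 genes, or 0.855%, sought on both strands. Mean GC content upstream was 51.6% at the 5 genes (range 48 to 57%) and 48.3% at the other 13 (range 38 to 58%).

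**Figure D1:**
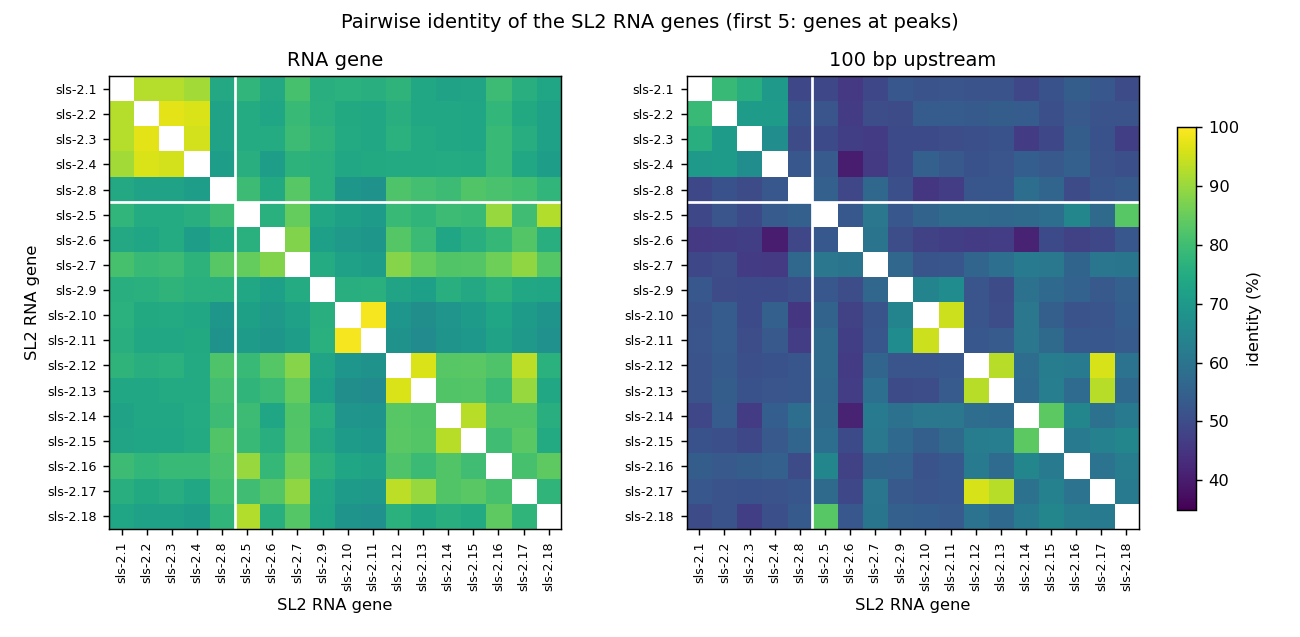
Pairwise identity in percent, as colour, between all 18 SL2 RNA genes over the RNA gene (left panel) and over the 100 bp upstream (right panel); rows and columns are genes, and the white lines set the 5 genes at peaks apart from the other 13. The 4 genes sls-2.1 to sls-2.4 form a block of 90.9 to 97.3% in the left panel, while sls-2.8 has 71.6 to 74.1% with them.

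Signals were read from the deposited lists of ce11 regions. Each library had a list of 30000 regions, replicate 1 with regions of 344 bp and replicate 2 with regions of 310 bp, and a further list of 30000 regions of 324 bp came from the reads of both libraries together. The thresholded list held 248 peaks, the 248 strongest rows of the pooled list. A signal is the caller's own value for a region, and here it is also given as a multiple of the median region of the same list; ranks run from 1, the strongest. Read depth was not given in the sources used here, so no counting error can be attached to a signal, and the only error available is the spread of the 2 libraries.

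Signal was highest at sls-2.4 and sls-2.2, followed by sls-2.1, sls-2.8 and sls-2.3. At sls-2.4 the signal was 47.7 in replicate 1 and 44.2 in replicate 2, or 7.34 and 7.29 times the median region, a mean of 7.31 ± 0.0318 (SD, n = 2 libraries). The pooled value of 94.0 was second of all 30000 regions. At sls-2.2 it was 42.3 in replicate 1 and 44.4 in replicate 2, or 6.50 and 7.31 times the median, a mean of 6.91 ± 0.577 (SD, n = 2 libraries), and the pooled value of 84.1 held rank 8. These genes were thus among the 11 strongest regions of each library, and their order was not the same in both: sls-2.2 was above sls-2.4 in replicate 2 and below it in replicate 1.

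The genes sls-2.1 and sls-2.8 formed the middle of the order. At sls-2.1 the signal was 38.9 in replicate 1 and 33.3 in replicate 2, or 5.99 and 5.49 times the median (mean 5.74 ± 0.352, SD, n = 2 libraries), with ranks 17 and 34. At sls-2.8 it was 32.4 in replicate 1 and 27.1 in replicate 2, or 4.98 and 4.46 times the median (mean 4.72 ± 0.369, SD, n = 2 libraries), with ranks 32 and 71. Both libraries put sls-2.1 above sls-2.8, and their values for the genes did not overlap, but in the pooled list the genes changed places, with 55.7 at sls-2.1 (rank 46) and 56.1 at sls-2.8 (rank 44).

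The peak at sls-2.3 was the weakest of the 5 and rested mainly on replicate 2. The signal there was 11.2 in replicate 1, which is 1.73 times the median, rank 1979 and a deposited q-value of 0.127, against 19.5 in replicate 2, which is 3.22 times the median, rank 187 and a q-value of 0.00214. The mean was 2.47 ± 1.05 (SD, n = 2 libraries), the widest spread among the 5 genes. Its pooled signal of 31.8 held rank 226, close to the weakest row of the thresholded list, which had 30.8 at rank 248. The first rows at SL2 RNA genes outside the threshold were a second row at sls-2.8 with 29.2 (rank 288) and, farther below, sls-2.5 with 25.4 (rank 445).

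**Figure D2:**
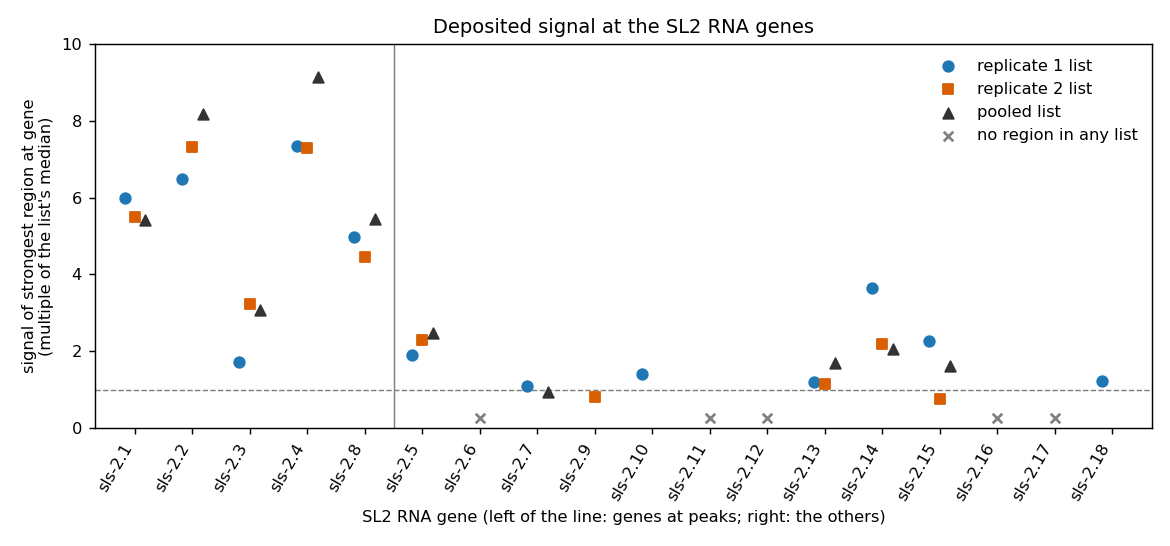
Signal of the strongest listed region overlapping each SL2 RNA gene, as a multiple of the median region of its list (vertical axis), for the 5 genes at peaks left of the line and the other 13 right of it; circles are replicate 1, squares replicate 2, triangles the pooled list, crosses near 0 mark genes with no region in any list, and the dashed line is the median region. In each library 4 of the 5 genes at peaks lie at 4.46 or above, while sls-2.3 has 1.73 in replicate 1 and 3.22 in replicate 2, and the highest of the other genes is sls-2.14 with 3.64 in replicate 1.

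The other 13 SL2 RNA genes are the background for these values, and since the 5 were chosen for having a peak, the difference between the sets is a description. The same overlap with the thresholded list was found for 0.600% of the 46872 other annotated genes and for 3.60% of the 111 snRNA genes that are not SL2 RNA genes. A row of the pooled list, which reaches down to 0.751 times the median, overlapped 5 of the 5 genes and 5 of the other 13, against 33.3% of the 46872 genes and 25.2% of the 111 snRNA genes. The share of the other 13 was thus near that of all genes. Among the 248 strongest regions of both libraries were 4 of the 5 genes, all but sls-2.3, and 0 of the other 13, against 0.230% of the 46872 genes. Of the 18 genes, 5 had no region in any of the 3 lists, namely sls-2.6, sls-2.11, sls-2.12, sls-2.16 and sls-2.17; the weakest listed region was 0.720 times the median in replicate 1 and 0.715 in replicate 2.

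Among the SL2 RNA genes without a peak, sls-2.5 and sls-2.14 had the highest pooled signals, 25.4 (rank 445) and 21.2 (rank 834). At sls-2.5 the signal was 1.90 times the median in replicate 1 and 2.28 in replicate 2 (mean 2.09 ± 0.271, SD, n = 2 libraries). The range of sls-2.5 lay between both values of sls-2.3, 1.73 and 3.22, so the spread of the libraries does not separate these genes. At sls-2.14 replicate 1 had 3.64 times the median, rank 81, and replicate 2 had 2.18 times, rank 844 (mean 2.91 ± 1.03, SD, n = 2 libraries). In replicate 1 the signal at sls-2.14 was thus above that of sls-2.3, and in replicate 2 below it. The centre of the replicate 1 region lay 231 bp from the 5' end of sls-2.14, past the 3' end of this gene of 112 bp, whereas that of replicate 2 lay at -48, upstream of it. The mean and SD at sls-2.14 thus join regions at different places and are not the spread of 1 site. A second replicate 1 region, with its centre at +24, had 1.16 times the median (rank 9808). The pooled signals of sls-2.13, sls-2.15 and sls-2.7 were 1.71, 1.63 and 0.949 times the median. No pooled region overlapped sls-2.9, sls-2.10 or sls-2.18, each of which had a region in 1 library only.

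The summits of the strongest pooled regions lay just upstream of all 5 genes at peaks, at 31 to 77 bp before the 5' end. A region had to overlap the gene, and the deposited summit is the middle of a region of 324 bp, so positions far from the gene could not occur. At sls-2.3 the 3 lists placed the summit within 1 bp, at -31 in the pooled list, -31 in replicate 1 and -32 in replicate 2. At sls-2.4 they gave -37 in the pooled list, -56 in replicate 1 and -43 in replicate 2. At sls-2.1, sls-2.2 and sls-2.8 replicate 1 placed it inside the gene, at +6, +13 and +38, and replicate 2 upstream, at -106, -31 and -54. Upstream summits were thus found in all 5 genes in replicate 2 and in 2 of the 5 in replicate 1. Of the 5 other SL2 RNA genes with a pooled region, sls-2.5 and sls-2.7 had the summit upstream, at -35 and -3, and the summits of sls-2.13, sls-2.15 and sls-2.14 lay at +171, +172 and +229, past the end of these genes.

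**Figure D3:**
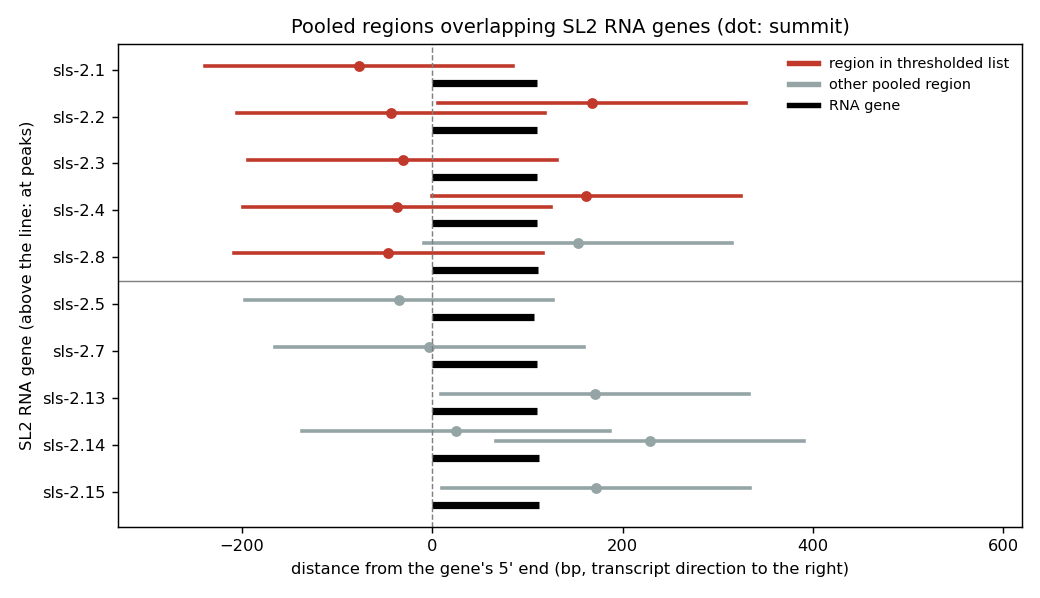
Pooled regions that overlap an SL2 RNA gene, drawn by distance in bp from the gene's 5' end with transcription to the right; red lines are rows of the thresholded list, grey lines other pooled rows, dots their summits and black bars the RNA genes. The strongest row of each gene at a peak has its summit 31 to 77 bp upstream, and second rows at sls-2.2, sls-2.4 and sls-2.8 have theirs at +168, +162 and +153.

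A second row followed the first at 3 of the 5 genes. At sls-2.2 it had a pooled signal of 35.6 (rank 160), with 3.24 times the median in replicate 1 and 1.96 in replicate 2. At sls-2.4 it had 31.4 (rank 230), with 3.26 times the median in replicate 1 and 2.16 in replicate 2. At sls-2.8 the second pooled row, outside the threshold, had 29.2, with 2.2 times the median in replicate 1 and no second row overlapping the gene in replicate 2. Replicate 1 was the higher library at sls-2.2 and sls-2.4, and sls-2.8 had no replicate 2 value to compare. Among the SL2 RNA genes without a peak, only sls-2.14 had a second pooled row, with 17.1 (rank 2120). The first and second summits were 211 bp apart at sls-2.2 and 199 bp apart at sls-2.4, less than the width of a region, so these rows overlap; the thresholded list holds 4 such overlapping pairs in all, 2 of them at SL2 RNA genes. Counted with these, 7 of its 248 rows overlapped an SL2 RNA gene. Region lists do not show whether a pair of rows marks 1 broad enrichment or 2 separate ones.

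The genes lie between coding genes rather than in them. On ce11, sls-2.1 (WBGene00004833), sls-2.2 (WBGene00004834; chrII:5543598-5543707) and sls-2.3 (WBGene00004835) are on chromosome II, sls-2.4 (WBGene00004836) is at chrI:4172206-4172315 and sls-2.8 (WBGene00004840) on chromosome III. In all 5 cases the summit of the strongest peak lay inside no coding gene. It was also nearer to the 5' end of the SL2 RNA gene than to that of any coding gene. The choice of the genes largely sets this nearness, since a region of 324 bp centred on its summit had to overlap the gene. The same nearness held for the strongest pooled region at sls-2.5, sls-2.7, sls-2.13, sls-2.14 and sls-2.15, which have no peak. At sls-2.4 the nearest coding 5' end was that of egg-5, a pseudophosphatase of the egg-to-embryo transition, 580 bp away with the summit on its upstream side, and on the other side R12E2.11, 1455 bp away. At sls-2.1 the summit lay downstream of the 5' ends of both neighbours, 2548 bp from nep-25, a neprilysin-like peptidase gene, and 753 bp from ZK1248.17. At sls-2.8 the coding genes were closest, with the summit 241 bp upstream of Y75B8A.23 and 255 bp upstream of tim-1, the homologue of the clock and replication gene timeless. The region lists do not assign the signal there to 1 of these 3 genes.

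The genes sls-2.2 and sls-2.3 are neighbours on chromosome II that point towards each other, with 456 bp between their 3' ends and 675 bp between their 5' ends. Their strongest pooled summits were 749 bp apart, farther than the 5' ends, since each lay on the outer, upstream side of its gene. The nearest coding 5' ends were those of C17C3.24, 1770 bp from the summit of sls-2.2, and of ins-13, an insulin-like peptide gene, 1309 bp from the summit of sls-2.2 and 560 bp from that of sls-2.3. Both summits were downstream of the 5' end of ins-13. The pair was 97.3% identical over the RNA gene, but 70.6% over the 100 bp upstream, where both strongest pooled summits lay. Their signals differed: sls-2.3 had 1.73 and 3.22 times the median in replicates 1 and 2, against 6.50 and 7.31 at sls-2.2. Whether sequence bears on this difference was not tested.

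**Figure D4:**
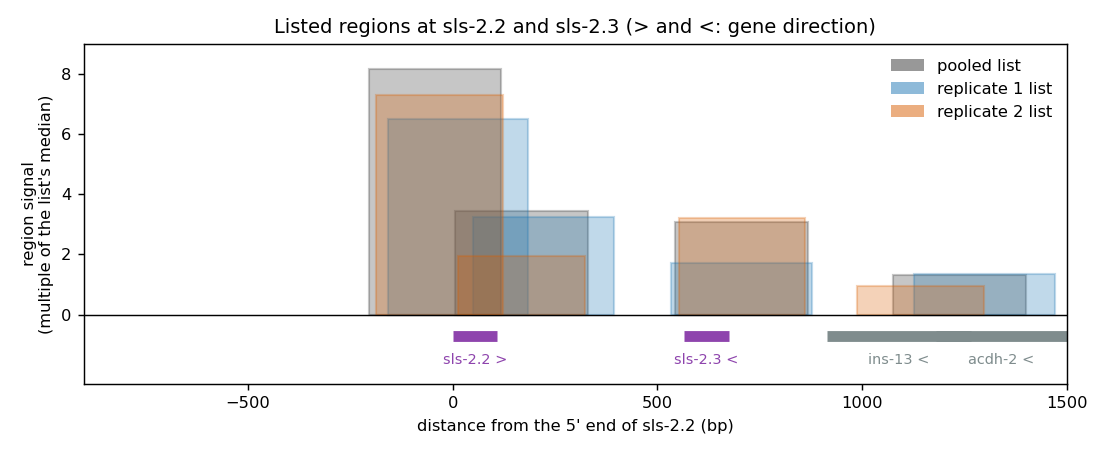
Listed regions at sls-2.2 and sls-2.3, as boxes over distance in bp from the 5' end of sls-2.2, with height the signal as a multiple of the list's median; grey is the pooled list, blue replicate 1 and orange replicate 2, with genes and their direction underneath. The first region at sls-2.2 reaches 6.50 in replicate 1 and 7.31 in replicate 2, against 1.73 and 3.22 for the region at sls-2.3.

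Repeated sequence differs between these genes, and reads that align to several places can be lost or shared out depending on the aligner settings, and those settings are not given here. From 200 bp upstream to the 3' end of the gene, the share of 30-base words that occur once in the genome was 55.2% at sls-2.1, 58.7% at sls-2.2, 75.8% at sls-2.3, 82.9% at sls-2.4 and 100% at sls-2.8. For 50-base words it was 67.0% at sls-2.1, 70.9% at sls-2.2, 81.6% at sls-2.3, 96.9% at sls-2.4 and 100% at sls-2.8. Over the other 13 SL2 RNA genes the share ranged from 32.0% at sls-2.12 to 100%, with a median of 90.0%, for 30-base words, and from 65.9 to 100%, with a median of 100%, for 50-base words. The lowest share was thus at sls-2.12, a gene with no region in any list, and its absence may not be read as low binding. The other genes with no region in any list had higher shares of unique 30-base words. These were 69.6% at sls-2.11, 81.4% at sls-2.17, 94.7% at sls-2.6 and 99.6% at sls-2.16. For 50-base words sls-2.12 had 65.9%, beside 67.0% at sls-2.1, which has a peak. Whether repeated sequence bears on which genes are listed was not tested. The part of repeated sequence in the signals of the 5 genes was not tested. The 12 SL1 RNA genes, in a tandem array on chromosome V, were overlapped by no region in any list, and no listed region lay within 500 bp of one. Their median share of unique 30-base words was 0%, so here too absence from the lists is not a measurement of low binding.

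A list of 14 genes drawn up for SL trans-splicing, with Sm protein genes and not limited to SL2 RNA, was also looked at. Of these, 2 had a thresholded peak at the gene or within 1000 bp of its 5' end, against 1.34% of the 19973 coding genes. One was cpf-2, for CstF-64, a cleavage stimulation factor subunit that binds the SL2 RNA particle. Its peak at chrIII:13268839-13269162 had a pooled signal of 63.2 (rank 32), with 3.79 times the median in replicate 1 and 6.04 in replicate 2 (mean 4.92 ± 1.59, SD, n = 2 libraries), and a summit at -118 from the 5' end of cpf-2 with no RNA gene under the peak. That mean lies beside those of sls-2.8 and sls-2.1, within the spread of the libraries. The other was snr-4, for an Sm protein, with a pooled signal of 36.2 (rank 151), with 3.84 times the median in replicate 1 and 1.96 in replicate 2 (mean 2.90 ± 1.33, SD, n = 2 libraries). The peak at chrV:11979919-11980242 had its summit at -358 from the 5' end of snr-4 and also overlapped the snRNA gene T11F9.15 and the ncRNA gene C52E4.14. Of 11 genes for SNAPc, the TATA-binding protein and their known partners, 0 had a peak, and the highest signal was that of snpc-4, the SNAPc DNA-binding subunit, at 1.69 times the median (rank 1981) in the pooled list.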

How the data were processed

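The 2 ChIP-seq libraries of the series were used through peak lists in the narrowPeak format. The signal of each region is the value the authors' peak caller deposited, in the caller's own units. The deposited −log10 q-value of each region, identified by its place among the narrowPeak columns, was turned into a q-value. Lists were made from alignments and a control file not used here, per the labels of the deposited listings, and peaks were thresholded by comparing pooled and single-library lists. What caller, aligner, depth and reproducibility threshold applied is not given in the sources used here.

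Genes came from Ensembl release 115 and sequence from RefSeq, both WBcel235, which is ce11. Regions overlapping a gene by at least 1 bp were taken from each list, the strongest one first, and signals were divided by the median of their own list. No test was made, as the 5 genes were selected on the thresholded list and the series has 1 group. Motifs were sought on both strands. Identity was computed from global alignments. The named genes were all sls-2 genes, the nearest coding 5' end on each side of a summit, the sls-1 genes as a class, and from the lists of trans-splicing and of SNAPc genes those with a peak or, failing that, the strongest; 11 of the 12 genes of the second list were in the annotation. The members and lists were chosen with earlier results of these data known. Alternatives were other overlap rules, other thresholds, another scaling, each library alone and the ce10 lists. The code, tested on simulated data, used Python 3.11.15, pandas 2.3.3, numpy 2.4.6 and Biopython 1.88.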

Additional observations from a re-analysis of the deposited data

How the results depend on the processing

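Of 44 alternatives over all values, 34 kept the value within the spread of the libraries or, for counts, within 1.5 times, 10 moved it and 0 reversed it. For the signal at a single gene, leaving out 1 library could not move the mean of 2 values by more than their SD. Those alternatives therefore had to be counted as kept. Taking the region nearest to the pooled summit returned the same value at each of the 5 genes. Both kinds are among the 34 and do not show how firm the signals are. The count of 5 SL2 RNA genes at peaks was 5 when the summit had to lie within 200 bp of the gene, when 500 bp were added on either side, and in either library's own 248 strongest regions, where 4 genes are shared and replicate 1 has sls-2.14 in place of sls-2.3. It was 4 in the stronger part of the peaks, which leaves out sls-2.3. The count of genes with a pooled region was 10, and 6 when the q-value had to be at or below 0.05, since sls-2.7, sls-2.13, sls-2.14 and sls-2.15 then drop out. The median signal of the 5 genes was 5.74 times the median region, and 1.69 times when each library was divided by the median of its strongest 248 regions; this scaling lowered all 5 genes and kept their order. In the pooled list 3 single genes moved by more than the spread of the libraries. The order changed without replicate 1, where sls-2.2 stood above sls-2.4, and in the pooled list, where sls-2.8 stood above sls-2.1. On ce10 the strongest peak of each of the 5 genes had a thresholded counterpart of the same rank, while the second row of sls-2.4 was present only in the ce10 pooled list. No paired analysis was possible because the libraries form 1 group. Unknown read depth limits every value, and a gene without a region has no value in these lists.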
